A study of Mus musculus with 2 samples.

Results

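The interferon-inducible immunity GTPases described here are 10 genes: the guanylate-binding proteins Gbp2, Gbp3, Gbp4, Gbp6, Gbp7 and Gbp9, and the immunity-related GTPases Irgm1, Irgm2, Igtp and Iigp1. They were taken by Entrez Gene number from a count table of 27179 genes, and 10 of 10 were found and measured. The table comes from ALL65, a single primary T cell leukaemia (T-ALL) of the mouse, grown in recipient animals and sorted from their spleens. Every cell carries Vav-tTA, a tetracycline-controlled activator driven in blood cells by the Vav promoter, and TRE-GFP-shIkaros, which links green fluorescent protein (GFP) to a short hairpin RNA against Ikaros. In untreated mice the hairpin is on, and GFP-high cells were sorted. In mice given doxycycline (Dox) for 3 days the hairpin is shut off, endogenous Ikaros returns, and GFP-mid cells were sorted. Treatment and sort gate therefore cannot be told apart, and both groups share the transgenes and the leukaemia. Strain and age of the mice were not given in the sources used here.

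Both GTPase families belong to cell-autonomous immunity, the defence that a cell mounts inside its own cytosol. Interferon gamma, and also the type I interferons, act through Jak kinases on STAT factors and interferon regulatory factors (IRFs), which bind short elements in the promoters of these genes. Guanylate-binding proteins are large GTPases that assemble as coats on vacuoles and bacteria. Immunity-related GTPases come as effectors, among them Iigp1 (Irga6), which load onto pathogen vacuoles, and as the regulators Irgm1, Irgm2 and Igtp (Irgm3), which sit on the cell's own membranes and keep the effectors inactive there. Irgm1 is also known for the survival of activated T cells exposed to interferon gamma.

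In total 7477988 counts fell to the untreated and 14457475 to the Dox library. There was 1 library in each group, so the values have no replicate error and the differences no replicate check. Levels are CPM, the usual scaling of counts by library size, here with sizes corrected by edgeR's TMM, a trimmed mean over genes. Ratios are log2 of Dox over untreated, and bounds in parentheses are exact 95% counting intervals, which hold no spread between mice. A count of 0 allows up to 0.395 CPM in the untreated and 0.211 CPM in the Dox library. Ikzf1, the target of the hairpin, stood at 262 and 1455 CPM, in the direction the labels give. Of 13 T cell and T-ALL markers 12 were measured, that is at 1 CPM or more on average, with 1338 and 1156 CPM for Lck and 260.1 and 244 CPM for Cd3e. The T-lineage markers were not all level: 1 stood 2-fold or more higher, Cd8b1 at 1.27 (1.18 to 1.36), and 3 stood lower by as much, Notch1 at -1.60 (-1.66 to -1.54), Rag1 at -1.54 (-1.72 to -1.37) and Dntt at -1.12 (-1.17 to -1.07). Over all 11498 measured genes 2.91% stood 2-fold or more higher and 3.16% lower by as much. The part of the T-lineage marker differences in the members' ratios was not tested.

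The members went apart. Gbp9 and Gbp4 stood more than 2-fold higher with Dox, Iigp1 stood 4.97-fold lower, and the other 7 lay within 2-fold. Among the 10113 genes that reached 5 CPM in either library, 2.21% stood 2-fold or more higher and 2.24% lower by as much. At 1.5-fold the members gave 4 higher and 1 lower, against 6.28% and 6.18% of those genes. The ratio was above 0 in 6 members, against 51.8%. The counting interval lay above 0 for 6 members and below 0 for 2, against 26.9% and 23.8%. The median log2 ratio of the 10 members was 0.28, beside 0.01 for the 10113 genes. In a bulk library, more transcript per cell and more cells that make it cannot be told apart.

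**Figure D1:**
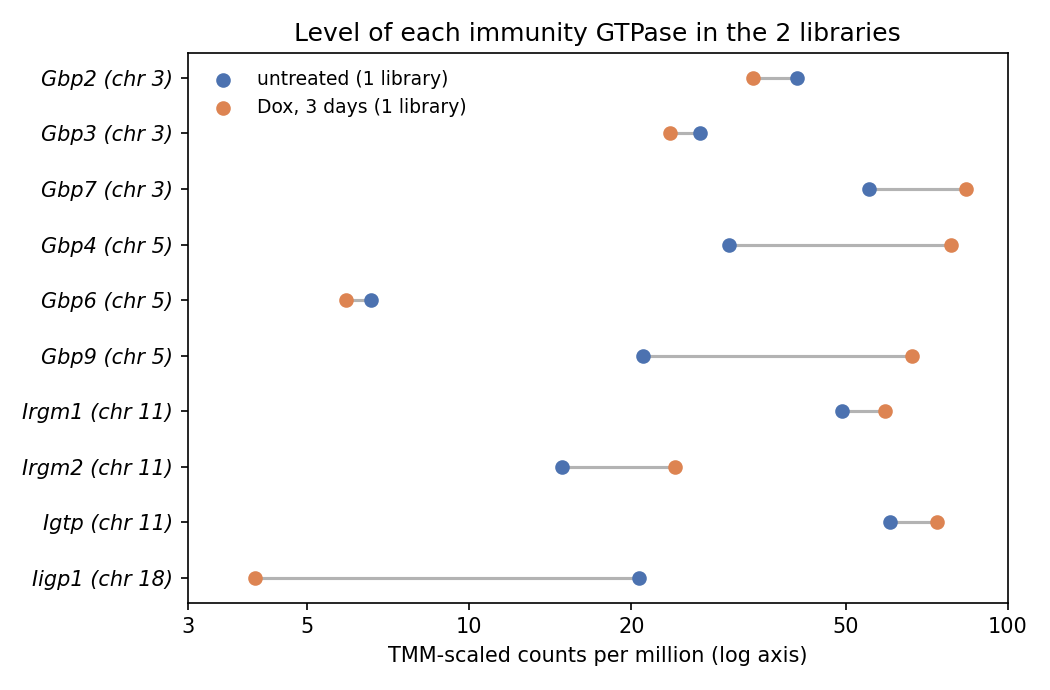
Level of each member in TMM-scaled CPM (log axis) in the untreated library (blue) and the Dox library (orange), ordered by chromosome, with 1 library a group and no error bar. Gbp4 and Gbp9 move right with Dox to 78.6 and 66.4 CPM, Iigp1 moves left from 20.7 to 4.01 CPM, and the remaining points lie closer together.

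The 6 guanylate-binding protein members lie in 2 clusters, on chromosomes 3 and 5. On chromosome 5 Gbp9 (Entrez Gene 236573, positions 105076464 to 105110357 in mm10) had 160 untreated and 944 Dox counts, or 21.1 and 66.4 CPM. Its log2 ratio of 1.65 (1.41 to 1.91), a 3.13-fold difference, was the highest of the 10. Gbp4 (Entrez Gene 17472, 105115767 to 105139586), its direct neighbour, had 231 untreated and 1118 Dox counts, or 30.4 and 78.6 CPM. Its log2 ratio was 1.37 (1.16 to 1.58), and its interval overlapped that of Gbp9. Gbp6 (Entrez Gene 100702, 105270702 to 105295871) had 50 untreated and 84 Dox counts, or 6.58 and 5.90 CPM, with a ratio of -0.15 (-0.68 to 0.38), so no difference was detectable at this depth. The cluster thus held the 2 members with the highest ratios and, farther along, the member with the fewest counts without Dox.

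Gbp6 is also the member whose counts are least certain. In GENCODE transcripts, 70.7% of all runs of 50 bases in Gbp6 occur in transcripts of another gene, chiefly the overlapping Gm43302 and, at 45.9%, Gbp10. For the other members this share ran from 0.379% in Irgm1 to 12.7% in Gbp7, with 8.05% in Gbp9 and 7.78% in Gbp4. Gm43302, unlike Gbp10, was not found by that name among the counted genes. How reads that match several genes were counted was not given in the sources used here. Summed over Gbp6 and Gbp10, 74 and 144 counts gave a ratio of 0.06 (-0.36 to 0.48). Of the chromosome 5 genes outside the 10, Gbp8 stood higher at 45 and 160 counts and 0.90 (0.44 to 1.44). The intervals of Gbp10, at 24 and 60 counts and 0.40 (-0.29 to 1.17), and Gbp11, typed by RefSeq as a transcribed pseudogene, at 7 and 23 counts and 0.70 (-0.46 to 2.28), held 0. All 6 chromosome 5 genes were measured, and their median log2 ratio was 0.80.

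On chromosome 3 the members differed less between the libraries. Gbp2 (Entrez Gene 14469, 142620663 to 142638008), known for its recruitment to vacuoles of the parasite Toxoplasma, had 309 untreated and 478 Dox counts, or 40.7 and 33.6 CPM. Its log2 ratio was -0.27 (-0.48 to -0.06), with an interval just below 0. Gbp3 (Entrez Gene 55932, 142560016 to 142573213) had 204 untreated and 336 Dox counts, or 26.8 and 23.6 CPM, with a ratio of -0.18 (-0.44 to 0.07). Gbp7 (Entrez Gene 229900, 142530336 to 142550151) had 421 untreated and 1192 Dox counts, or 55.4 and 83.8 CPM. At 0.60 (0.44 to 0.76) it was the 1 chromosome 3 member past 1.5-fold, with an interval apart from those of Gbp2 and Gbp3. GENCODE places exons of Gm43802 over 11.3% of the exon bases of Gbp7 on the same strand. The other genes of the cluster were Gbp5, at 72 and 108 counts and -0.31 (-0.76 to 0.13), and Gbp2b, with 4 and 5 counts. The median over the 4 measured chromosome 3 genes was -0.23, and the intervals of Gbp4 and Gbp9 lay above the intervals of all 4.

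**Figure D2:**
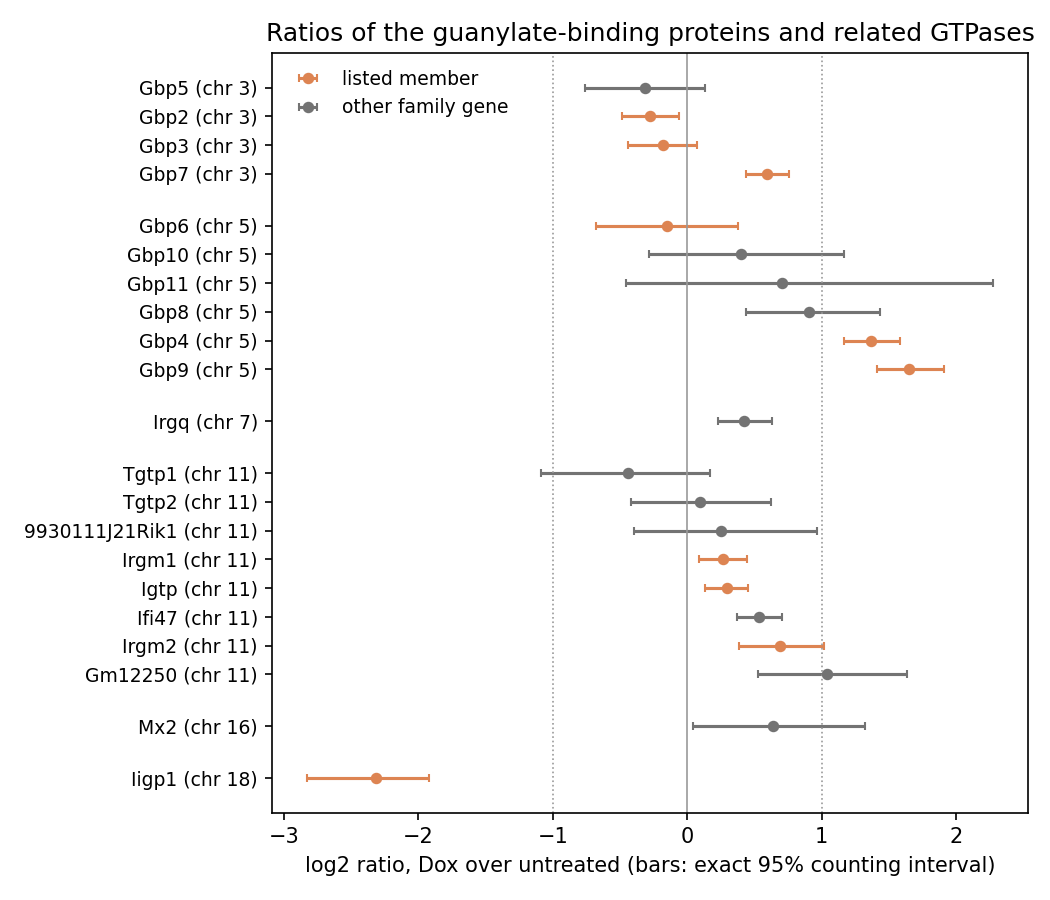
Log2 ratio of Dox over untreated for the 10 members (orange) and the 11 other family genes with 1 CPM or more on average (grey), grouped by chromosome, with exact 95% counting intervals as bars and dotted lines at 2-fold. Gbp4 and Gbp9 lie right of the 2-fold line, and Iigp1 lies alone on the left at -2.31.

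The regulators Irgm1, Irgm2 and Igtp all stood somewhat higher with Dox. Igtp (Entrez Gene 16145, chromosome 11, 58199556 to 58207592) had 459 untreated and 1054 Dox counts, which is 60.4 and 74.1 CPM, and its log2 ratio was 0.29 (0.14 to 0.46). Irgm1 (Entrez Gene 15944, chromosome 11, 48865245 to 48871420) had 374 untreated and 843 Dox counts, or 49.2 and 59.3 CPM, with a ratio of 0.27 (0.09 to 0.45). For Irgm2 (Entrez Gene 54396, chromosome 11, 58214977 to 58222783) there were 113 untreated and 343 Dox counts and 14.9 and 24.1 CPM. Its ratio of 0.69 (0.39 to 1.02) was the largest of the 3, though its interval overlapped those of Irgm1 and Igtp. Igtp and Irgm2 are adjacent, and 162 exon bases of each overlap the other in GENCODE on the same strand.

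These 3 genes are set apart from the effectors by the nucleotide-binding loop of the GTPase domain, where the regulators have methionine in place of a lysine. The coding DNA of that loop, from GENCODE transcripts, is shown for the regulators and for effectors on chromosome 11, with the codon in question in capitals:
Irgm1: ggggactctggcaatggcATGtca
Irgm2: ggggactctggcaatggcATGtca
Igtp: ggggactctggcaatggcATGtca
Ifi47: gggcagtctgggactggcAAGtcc
Tgtp1: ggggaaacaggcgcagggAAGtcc
Tgtp2: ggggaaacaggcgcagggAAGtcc
The 24 bases are identical in the 3 regulators, whose ratios ran from 0.27 to 0.69. Of the effectors, Ifi47 (Irgd) had 409 and 1110 counts and a ratio of 0.53 (0.37 to 0.70). Gm12250 (Irgb10), an effector known to attack bacterial membranes, had 36 and 141 counts and a ratio of 1.04 (0.53 to 1.64). Tgtp1 and Tgtp2 (Irgb6), near-identical copies with 81.2% and 86.6% of their 50-base runs found in another gene, had 87 and 149 counts in sum and a ratio of -0.13 (-0.52 to 0.27). Taken singly, the ratios were -0.44 (-1.09 to 0.17) for Tgtp1 and 0.09 (-0.42 to 0.63) for Tgtp2. A further chromosome 11 relative, 9930111J21Rik1, had 28 and 63 counts and 0.25 (-0.40 to 0.96). Of its 50-base runs 83.2% were likewise found in another gene, chiefly 9930111J21Rik2. The ratios of the effectors on chromosome 11 thus ran from -0.44 to 1.04, a wider range than that of the regulators. The genes at its ends, Tgtp1 and Gm12250, had fewer counts than any regulator. The interval of Tgtp1 overlapped that of Irgm1, and the interval of Gm12250 that of Irgm2. The ratio of Ifi47 lay within the range of the regulators. A difference in spread between effectors and regulators was not tested.

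The promoters of 6 members (Gbp2, Gbp3, Gbp7, Irgm1, Irgm2 and Igtp) were matched in RefSeq windows of GRCm38.p6 that run from 250 bases before to 50 bases after a gene start; Gbp4, Gbp6, Gbp9 and Iigp1 had no match. The windows were searched on both strands for the interferon-stimulated response element (ISRE, here GAAA, 2 free bases and GAAA), which IRF and Stat complexes bind, and for the gamma-activated site (GAS, TTCNNNGAA), which STAT dimers bind. They were also searched for TGGGAA, a core of Ikaros binding sites. The last 120 bases before a start are shown, since the members differ in which elements they hold, with ISRE and GAS matches in capitals:
Gbp7, chr3:142530216-142530335, plus strand: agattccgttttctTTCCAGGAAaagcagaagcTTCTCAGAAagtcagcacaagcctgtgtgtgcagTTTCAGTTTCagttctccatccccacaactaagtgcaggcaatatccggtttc
Gbp3, chr3:142559924-142560043, plus strand: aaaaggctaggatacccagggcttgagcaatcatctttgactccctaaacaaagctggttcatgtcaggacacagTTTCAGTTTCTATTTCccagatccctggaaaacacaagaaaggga
Gbp2, chr3:142620543-142620662, plus strand: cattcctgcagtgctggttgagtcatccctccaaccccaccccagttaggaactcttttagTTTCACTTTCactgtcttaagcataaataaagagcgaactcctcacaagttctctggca
Igtp, chr11:58199436-58199555, plus strand: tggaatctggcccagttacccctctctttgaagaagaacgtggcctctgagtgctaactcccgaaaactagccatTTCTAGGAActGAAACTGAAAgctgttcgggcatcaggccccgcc
Irgm2, chr11:58214857-58214976, plus strand: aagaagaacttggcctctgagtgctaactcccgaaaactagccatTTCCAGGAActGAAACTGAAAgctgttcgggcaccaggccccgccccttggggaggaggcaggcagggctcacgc
Irgm1, chr11:48871421-48871540, minus strand: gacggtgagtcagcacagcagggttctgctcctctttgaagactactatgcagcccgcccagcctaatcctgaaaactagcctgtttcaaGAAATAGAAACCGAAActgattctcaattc
Gbp3 had 2 windows, for separate starts, and the second, at chr3:142560106-142560405, held none of the 3 motifs. An ISRE match was thus present in 6 of the 7 windows and at 1 start or more of each of the 6 genes, against 3.44% of 32851 windows of the same length. A GAS match was present in Gbp7, Igtp and Irgm2, against 8.30% of windows. The ISRE match nearest to the start began 24 bases before it in Irgm1, 34 in Igtp, 39 in Gbp3, 53 in Gbp7, 59 in Gbp2 and 64 in Irgm2. In Gbp3 and in Irgm1 a pair of overlapping ISRE matches runs together in the capitals. The windows of Igtp and Irgm2 share a run of 61 identical bases. On chromosome 3 Gbp2 and Gbp3, with an ISRE and no GAS match, had ratios under 0, and Gbp7, with GAS matches as well, had a ratio above 0. Irgm1, with no GAS match, had a ratio above 0 too. Windows of other family genes did not all follow the order seen on chromosome 3. Gbp5, of the same cluster, held an ISRE and GAS matches and had a ratio of -0.31 (-0.76 to 0.13). On chromosome 11, Gm12250 at 1.04 (0.53 to 1.64), Tgtp2 at 0.09 (-0.42 to 0.63) and Tgtp1 at -0.44 (-1.09 to 0.17) held both motifs. Ifi47, at 0.53 (0.37 to 0.70), held neither. The interval of Gbp3 held 0, and the members past 2-fold, Gbp4, Gbp9 and Iigp1, had no window. The part of these elements in the ratios was not tested. TGGGAA occurred in the first Gbp3 window and in Gbp7, against 25.6% of windows. A match is a description of the sequence and shows no binding.

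The levels of different genes were compared as CPM per kilobase of the deposited gene length. Igtp and Irgm1 were the first and the second of the 10 in both libraries, at 29.9 and 22.1 without Dox and 36.6 and 26.6 with Dox, all in CPM per kilobase. Gbp2 was the third without Dox at 16.6, and the intervals of Gbp3 at 10.2 and Gbp7 at 9.98 overlapped. Below them, the intervals of neighbours in the order from Gbp4 through Iigp1 and Gbp9 to Irgm2 overlapped as well, at 6.70, 6.60, 5.79 and 4.23, and Gbp6 was the last at 1.52. With Dox Gbp9 at 18.3 and Gbp4 at 17.3, whose intervals overlapped, came next after Irgm1, ahead of Gbp7 at 15.1 and Gbp2 at 13.7, which overlapped too. Gbp3 followed at 8.95 and Irgm2 at 6.86. Iigp1, the seventh without Dox, was the last with Dox at 1.28, and its interval overlapped that of Gbp6 at 1.37.

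Summed over the members, 2478 untreated and 6449 Dox counts came to 326 and 453 CPM, a ratio of 0.48 (0.41 to 0.54). The make-up of this sum differed between the libraries. Gbp4 and Gbp9 together held 15.8% of it (14.4 to 17.3, exact binomial interval) without Dox and 32.0% (30.8 to 33.1) with Dox. Iigp1 held 6.34% (5.41 to 7.37) without and 0.884% (0.670 to 1.14) with Dox. The 3 regulators held 38.2% (36.3 to 40.1) and 34.7% (33.6 to 35.9), and the 3 chromosome 3 members 37.7% and 31.1%. In summed CPM both sets stood higher with Dox, the regulators at 124 and 157 CPM. The chromosome 3 members, of which Gbp7 alone stood higher, were at 123 and 141 CPM.

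**Figure D3:**
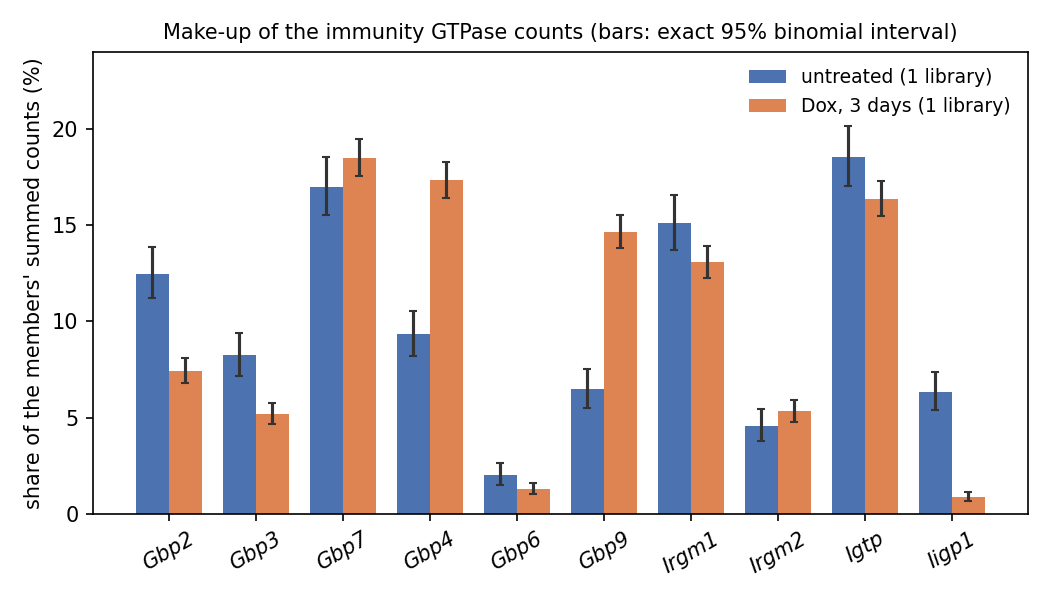
Share of each member in the summed counts of the 10 members, in percent, for the untreated library (blue) and the Dox library (orange), with exact 95% binomial intervals as error bars. The bars of Gbp4 and Gbp9 are taller with Dox, at 17.3% and 14.6%, and that of Iigp1 shrinks to 0.884%.

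Iigp1 (Entrez Gene 60440, chromosome 18) was the 1 member more than 2-fold lower. It had 157 untreated and 57 Dox counts, or 20.7 and 4.01 CPM, although the Dox library held more counts in total. The log2 ratio of -2.31 (-2.83 to -1.92) corresponds to a 4.97-fold lower level with Dox. Its transcripts share 1.69% of their 50-base runs with other genes. The related genes Gm4951, with 2 and 0 counts, and F830016B08Rik, with 0 in both libraries, were under the limit of 3 counts. Without Iigp1 the median ratio of the remaining 9 members was 0.29.

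In the plot of ratio against level over all genes, Gbp4, Gbp9 and Iigp1 stand outside the 2-fold band, and the other 7 lie within it. Of the 21 other family genes in the table, 11 were measured. Gm12250 stood 2-fold or more higher and 0 stood lower by as much, against 2.91% and 3.16% of the 11498 measured genes. At 1.5-fold 4 stood higher and 0 lower, against 7.54% and 8.0%. The interval lay above 0 for 5 of the 11 and below 0 for 0, against 24.8% and 22.3%, and their median log2 ratio was 0.42. Mx1 and Mx2, which belong to the dynamin-like Mx family and which RefSeq types as transcribed pseudogenes in the mouse reference, had 3 and 14 counts and 29 and 86 counts, and the ratio of Mx2 was 0.64 (0.04 to 1.32). Irgq, a distant relative, stood at 0.42 (0.23 to 0.63). The 9 large GTPases of membrane traffic and of membrane fission and fusion that are not known as interferon-inducible had a median of -0.05 and 0 members past 1.5-fold, with Ehd1 at 0.57 (0.40 to 0.74) and Atl3 at -0.51 (-0.60 to -0.41) farthest from 0.

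**Figure D4:**
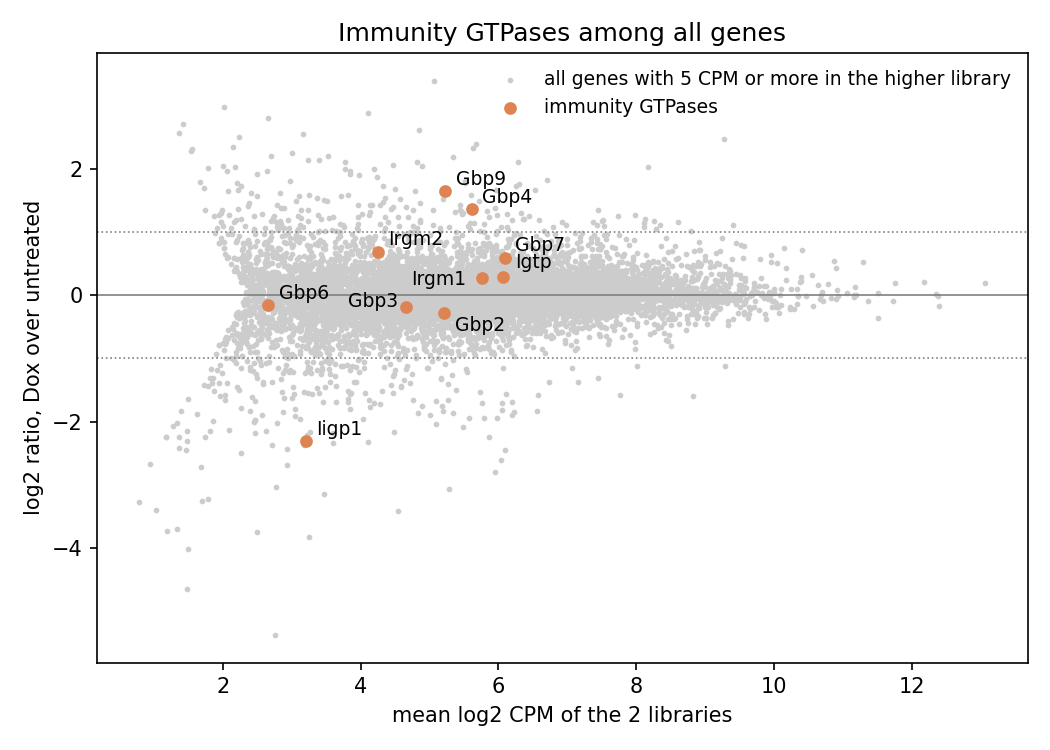
Log2 ratio of Dox over untreated against the mean log2 CPM of both libraries for the 10113 genes that reached 5 CPM in either library (grey) and the 10 members (orange), with dotted lines at 2-fold. Gbp4 and Gbp9 lie above the upper line and Iigp1 below the lower line.

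The genes around each locus were read as a local reference. Within 500 kb of the chromosome 3 members lay 5 other measured genes with a median of 0.23, of which 9530052C20Rik, at 18 and 9 counts, was past 2-fold, and lower. Around the chromosome 5 members 7 genes had a median of 0.34. Gm9640, 18.3 kb from Gbp4, stood higher at 6 and 45 counts and 1.78 (0.77 to 3.52). The transporter gene Abcg3 stood at 0.85 (0.44 to 1.32), and Lrrc8c, a subunit of volume-regulated anion channels, at 0.54 (0.35 to 0.73). The 6 genes around Irgm1 had a median of -0.06 and the 11 around Irgm2 and Igtp a median of -0.02, with 0 past 2-fold in either direction within 500 kb.

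Around Iigp1 other genes stood lower with Dox as well. Within 500 kb, 2 of 7 measured genes stood 2-fold or more lower, against 3.16% of all measured genes. Smim3, the nearest at 81.6 kb, had 121 and 109 counts and a ratio of -1.04 (-1.44 to -0.67). Farther off, at 411 kb, Cd74, which encodes the invariant chain of MHC class II, had 88 and 27 counts and a ratio of -2.50 (-3.29 to -1.97). The window was widened to 1 Mb after these values were seen, and 5 of 13 genes were then lower by 2-fold or more, against the same 3.16%, with 0 higher by as much. All 13 lay on the same side of Iigp1, at higher positions, and no gene on the other side was measured. At 1 Mb the chromosome 3 locus gained no gene, the median of the chromosome 5 locus was 0.16 over 10 genes, and that of the Irgm2 and Igtp locus -0.02 over 26, with no further gene past 2-fold. The Irgm1 locus had a median of -0.04 over 10 genes and 1 lower by 2-fold or more, Gfpt2 at -1.38 (-1.97 to -0.89). The 3 added around Iigp1 were Arsi, a sulfatase gene with 1356 and 711 counts, at -1.83 (-1.97 to -1.70), the kinase gene Camk2a with 1254 and 785 counts at -1.58 (-1.71 to -1.45), and the receptor gene Pdgfrb at -1.72 (-2.04 to -1.45). They did not form an unbroken block, since Dctn4, Rbm22, Ndst1 and Rps14 lay between Smim3 and Cd74 with ratios from -0.10 to -0.01.

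**Figure D5:**
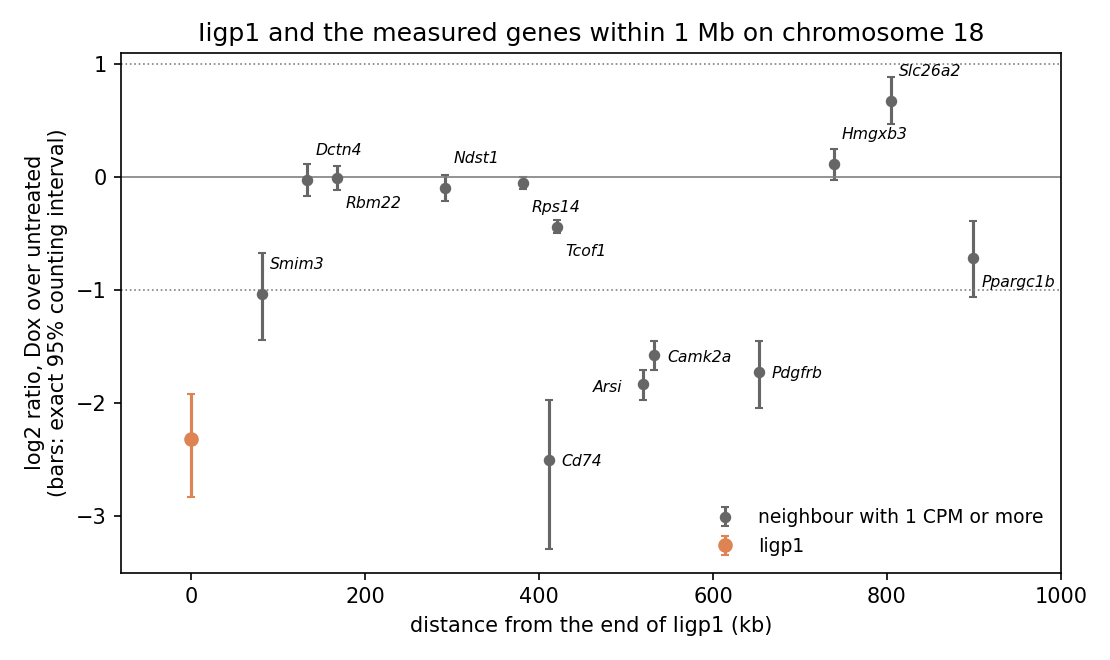
Log2 ratio of Dox over untreated against the distance in kb from the end of Iigp1 for Iigp1 (orange) and the 13 genes within 1 Mb that had 1 CPM or more on average (grey), with exact 95% counting intervals as bars and dotted lines at 2-fold. All 13 lie at higher positions than Iigp1. Smim3, Cd74, Arsi, Camk2a and Pdgfrb lie below the lower line with Iigp1, and the genes between Smim3 and Cd74 lie near 0.

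Upstream of these GTPases, all 6 listed interferon genes, among them Ifng and Ifnb1, had 0 counts in both libraries. The receptor chains of interferon gamma were present, with Ifngr1 at 97.2 and 102 CPM and a ratio of 0.07 (-0.06 to 0.20), and Ifngr2 at 26.1 and 30.2 CPM and 0.21 (-0.03 to 0.46). Both intervals held 0. Of the type I receptor chains, Ifnar1 stood at 0.63 (0.51 to 0.75) and Ifnar2 at 0.29 (0.13 to 0.46). The kinases stood higher, with Jak2 at 0.86 (0.75 to 0.98), Jak1 at 0.67 (0.61 to 0.72) and Tyk2 at 0.54 (0.35 to 0.73). Of these 7 receptor and kinase genes 0 were past 2-fold and 3 were past 1.5-fold, all higher, against 7.54% of measured genes higher and 8.0% lower at 1.5-fold.

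The transcription factors between receptor and promoter mostly stood higher. Of 11 measured STAT and IRF factors 10 had a ratio above 0, against 51.2% of measured genes, and their median was 0.45. Irf1, which interferon gamma induces and which acts on guanylate-binding protein promoters, stood at 0.56 (0.43 to 0.68). Stat2 at 0.36 (0.17 to 0.56) and Irf9 at 0.95 (0.79 to 1.11), parts of the type I factor complex, also stood higher. Irf7, which amplifies the type I response, was the factor past 2-fold, with 118 and 584 counts and a ratio of 1.39 (1.12 to 1.70). Among the rest, Nlrc5, the transactivator of MHC class I, stood at 0.65 (0.46 to 0.86), Irf2 at 0.45 (0.27 to 0.63) and Stat3 at 0.44 (0.33 to 0.54). The intervals of Irf8 at 0.34 (-0.02 to 0.72) and Irf3 at 0.06 (-0.08 to 0.21) held 0. Irf4, a factor of lymphocyte activation, was the 1 lower at -0.88 (-1.08 to -0.69).

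Of 10 inhibitors of the pathway 0 were past 1.5-fold in either direction, against 7.54% of measured genes higher and 8.0% lower. The median of the 10 was 0.29. Usp18, which blocks the type I receptor, stood at 0.58 (0.39 to 0.78). Socs1, which inhibits Jak kinases, stood at 0.44 (0.10 to 0.81) and its relative Socs3 at -0.54 (-0.85 to -0.25). Trim24 stood at 0.48 (0.33 to 0.64), and the phosphatase gene Ptpn1 at 0.41 (0.30 to 0.52).

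Of 32 measured type I response genes, 9 stood 2-fold or more higher and 0 lower by as much, against 2.91% and 3.16% of measured genes. At 1.5-fold 16 stood higher and 6 lower, against 7.54% and 8.0%, and the median was 0.60. The largest ratios above 5 CPM were those of Ifi27l2a at 1.99 (1.60 to 2.47), Phf11b at 1.92 (1.33 to 2.72) and Ddx58, the RNA sensor RIG-I, at 1.39 (1.19 to 1.60). Zbp1, a sensor of Z-form nucleic acids, had 156 and 751 counts and a ratio of 1.35 (1.11 to 1.62), with Ifit1 at 1.26 (0.68 to 1.97) and Ifi27 at 1.21 (1.05 to 1.37). Of the 6 lower genes, Bst2, which tethers budding viruses, at -0.87 (-1.09 to -0.65), and Oas2, which makes the activator of RNase L, at -0.84 (-1.21 to -0.49), were picked after their values were seen.

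The interferon gamma response genes differed less, with a median of 0.18 over 14 measured members. None was 2-fold or more higher and 1 was lower by as much, against 2.91% and 3.16% of all measured genes. That was Ciita, the transactivator of MHC class II, with 68 and 35 counts and a ratio of -1.79 (-2.49 to -1.25). The genes of MHC class I presentation included Tapbp at 0.59 (0.44 to 0.74), B2m at 0.41 (0.36 to 0.47) and the immunoproteasome subunit Psmb8 at 0.32 (0.25 to 0.39). Cd274, which encodes PD-L1, stood at 0.57 (0.19 to 0.98), and the peptidase gene Lap3 at -0.36 (-0.52 to -0.21). The chemokine genes Cxcl9 and Cxcl10 had 0 counts in both libraries.

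Much of the machinery with which the GTPases work was measured in these libraries. Of 16 measured genes for vacuole targeting and autophagy, on which the loading of the effectors onto vacuoles depends, 0 were past 2-fold. Over all measured genes 2.91% stood 2-fold or more higher and 3.16% lower by as much. The median of the 16 was 0.25. Gabarap, a ubiquitin-like protein of autophagosome membranes, was past 1.5-fold at 0.62 (0.34 to 0.93), and its relatives Gabarapl2 and Map1lc3a stood at 0.42 (0.15 to 0.71) and 0.46 (-0.02 to 0.98). Lgals8, which marks broken vacuoles, stood at 0.45 (0.25 to 0.66), Trim21 at 0.42 (0.23 to 0.63) and the receptor gene Sqstm1 at 0.36 (0.26 to 0.47). Atg5 at -0.06 (-0.25 to 0.12) and Atg7 at 0.0043 (-0.20 to 0.21), conjugation genes picked after their values were seen, had intervals that held 0. Of the 10 inflammasome genes 5 were measured. Casp1 and Casp4, caspases that guanylate-binding proteins help to activate, had 0 counts in both libraries. The adaptor gene Pycard stood at 0.78 (0.57 to 1.002), the pore gene Gsdmd at 0.39 (0.14 to 0.64) and Ninj1, which ruptures dying cells, at -0.53 (-0.91 to -0.16).

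Markers of other cells that can make these GTPases were set beside the members. Of 13 macrophage and monocyte markers 4 were measured, and all 13 summed to 24.2 and 33.9 CPM, with Csf1r at 4 and 8 counts, Cd14 at 0 and 1, and S100a8 at 0 in both. Of the 4 measured, 3 stood higher with intervals above 0, Ctss at 1.46 (0.86 to 2.22), Cd68 at 0.88 (0.26 to 1.61) and Itgam at 0.79 (0.39 to 1.23), and Lyz2 stood lower, with -1.99 (-2.86 to -1.38). Of 10 dendritic cell markers the 4 measured were the MHC class II genes Cd74, H2-Aa, H2-Ab1 and H2-Eb1. These 4 stood lower with Dox, as Iigp1 did, and they carried the sum of all 10, which was 127 and 55.6 CPM. The other markers were few in counts and none was lower: Zbtb46 was at 0 in both, Itgax had 1 and 3 counts, Flt3 3 and 19 counts, Xcr1 0 and 5 counts, and Clec9a and Siglech 0 and 1 each. The part of the MHC class II genes in the level of Iigp1 was not tested. Of 8 B cell markers 0 were measured, with sums of 0.395 and 0.633 CPM, and 4 were at 0 in both libraries. Of 8 NK cell markers 3 were measured, all higher with Dox, and all 8 summed to 1061 and 1745 CPM, of which Gzma gave 1059 and 1740 CPM. Ncr1, Klrk1, Klrd1 and Klra8 were at 0 in both. Of 12 endothelial and stromal markers 6 were measured, with Cdh5, Kdr, Emcn and Col3a1 at 0 in both. All 12 summed to 379 and 371 CPM, mostly Pecam1 at 159 and 205 CPM and Col1a2 at 165 and 112 CPM, while Vim stood higher at 1.52 (1.23 to 1.84) and Sparc at -1.96 (-3.22 to -1.18) and Pdgfrb, given above, stood lower. The part of the macrophage, NK and stromal markers in the members' ratios was not tested.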

How the data were processed

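Reads were processed with CASAVA 1.8.2 and featureCounts on mm10, the names given per the submitters' processing notes. The authors' deposited tables hold counts, whole numbers of reads per gene without normalization, beside a gene length. Aligner, annotation, strand setting and the handling of reads shared between genes were not given in the sources used here. In the design text there are 3 mice a group and 2 runs of each RNA, while the deposited table has 1 column a group, so no test was run. Between the series table and the library files 0 values differed.

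Entrez numbers were matched to RefSeq names for GRCm38.p6, giving 25275 symbols. Counts were scaled with TMM in edgeR 4.0.16 (R 4.3.3), and ratios used a prior count of 2. Intervals are Clopper-Pearson, and cover counting error only. The scaling and intervals were tested on simulated counts with set ratios and counting error only. That test cannot show how they hold across mice, sorts or library preparations. Shared runs and exon overlaps came from GENCODE M21. Python 3.11.15 with scipy 1.17.1 was used.

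The members and lists were chosen with earlier results of these data known. Named were all members, the measured other family genes, the receptors, kinases and STAT and IRF factors, and up to 6 genes of each further list with the largest ratios at 5 CPM or more. Neighbours and markers were named after their values were seen. The values of 1 listed gene are not reported here.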

Additional observations from a re-analysis of the deposited data

How the results depend on the processing

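With 1 library a group, no replicate could be left out, and no value covers differences between mice, sorts or library preparations. No paired analysis was possible because each group has 1 library. The ratios were recomputed with the size factors of DESeq2 1.42.0, with total counts, and with prior counts of 0.5 and 5, and the counts of members also with no CPM minimum and one of 20. Each of the 40 recomputed member ratios stayed inside its counting interval, and 0 changed sign. The largest move was 0.07, for Iigp1 with a prior count of 5. Total counts moved the median of all genes by -0.05 and DESeq2 by -0.004. Such shifts are nearly alike for every gene and smaller than 0.16, the narrowest half-width of a member's interval. Staying inside the interval was therefore a weak check. With a 1.5-fold limit, 4 members stood higher in place of 2. Of these, Gbp7 was close to the limit at 1.51-fold, and with total counts its log2 ratio of 0.55 fell under it. The counts of 2 higher and 1 lower held for each other alternative, 2-fold on the interval bound included. The median of the members, 0.28, ranged from 0.23 with total counts to 0.29 with a minimum of 20 CPM or without Iigp1, the last added after seeing the data. Depth limits Gbp6 most among the members, with an interval reaching 0.53 to either side.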
